A study of Mus musculus with 70 samples.

Results

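Zinc is among the most abundant trace metals of the brain, and the hippocampus holds a pool of it in the vesicles of mossy fibres, the axons by which dentate granule cells excite CA3 neurons. Metallothioneins are small cysteine-rich proteins that bind zinc and copper. MTF1 is the transcription factor that senses free zinc and switches on metallothionein genes and the zinc exporter gene Slc30a1 through short metal response elements. Proteins of the SLC30 family (ZnT) move zinc out of the cytosol, into vesicles or out of the cell, and proteins of the SLC39 family (ZIP) move metals into the cytosol. The 9 genes described here were selected by symbol from the 24346 genes of the expression table: the metallothionein genes Mt1, Mt2 and Mt3, the zinc sensor Mtf1, the exporters Slc30a1, Slc30a3 and Slc30a10, and the importers Slc39a10 and Slc39a14. They were chosen with the comparisons of these groups already known, so their differences between groups are a description: the log2 difference, its SE and whether limma called the gene at an unadjusted p under 0.05, with no p and as no independent evidence.

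RNA-sequencing measured gene expression in the dorsal hippocampus of adult male mice as FPKM, fragments normalized to transcript length and library size, in 70 libraries, 10 for each of 7 groups. The names of the running groups give days of voluntary wheel running, days without a wheel and days of renewed running: 0-0-2, 14-14-0, 14-7-2, 14-7-0 and 14-0-0. Sedentary mice (0-0-0) had no running. These 6 groups were trained for 3 min in object location memory (OLM), a session too short to leave a long-term memory in sedentary mice, and tissue was taken 1 h later, whereas home cage mice had neither running nor OLM. All groups were of the wild-type strain C57BL/6J and were housed singly. Each group was harvested in 2 cohorts of 5 libraries, numbered 0 to 4 and 5 to 9, and the table gives FPKM without read counts. Read totals of the libraries were not used here, so the depth behind a value is not given. Levels below are FPKM, which is per length, so the levels of genes are set side by side. They were not corrected for the GC content of genes, and its effect on the order of genes was not tested. Differences between groups are of log2(FPKM + 0.1). Because the tissue is bulk, fewer cells of a type and less RNA per cell cannot be told apart.

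Some libraries stood apart before any comparison. Sedentary replicate 6 held little RNA of excitatory neurons, with Slc17a7 (the vesicular glutamate transporter) at 17.1 FPKM against 509 to 817 in the other 9 sedentary libraries. Of 6 inhibitory neuron markers in the same library, Gad1, Gad2 and Slc32a1 were above the other 9 (Gad2, an enzyme gene of GABA synthesis, at 139 FPKM against 28.9 to 37.7), Pvalb (19.9 against 34.3 to 61.7) and Npy (41.1 against 90.8 to 240) were below them, and Sst lay within their range. In 14-7-0 replicate 4, 10279 genes were listed at 0, where the other 69 libraries had at most 7199. Ttr and 9 other markers of choroid plexus epithelium, all detected, summed to between 25.0 and 21934 FPKM per library. Results that rest on 1 of these libraries are given with and without it. Libraries numbered 9, which concern the metallothioneins, are described with them.

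The sequences upstream of the metallothionein genes and of Slc30a1 are shown because Mt1 and Mt2 moved together across libraries and because both kinds of gene are known targets of MTF1. They are RefSeq promoter windows of the build GRCm38.p6 (mm10), on the plus strand, ending at the base before the first start annotated by RefSeq or GENCODE. Capitals mark matches to the core of the metal response element, searched as TGCACNC and TGCGCNC on both strands, matches that overlap counted separately.
Mt1, chr8:94178839-94179081: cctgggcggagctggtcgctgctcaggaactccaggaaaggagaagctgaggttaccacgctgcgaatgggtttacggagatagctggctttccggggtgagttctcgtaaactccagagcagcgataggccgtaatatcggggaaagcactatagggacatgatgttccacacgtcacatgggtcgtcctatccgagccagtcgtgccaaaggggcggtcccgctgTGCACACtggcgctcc
Mt2, chr8:94172368-94172617: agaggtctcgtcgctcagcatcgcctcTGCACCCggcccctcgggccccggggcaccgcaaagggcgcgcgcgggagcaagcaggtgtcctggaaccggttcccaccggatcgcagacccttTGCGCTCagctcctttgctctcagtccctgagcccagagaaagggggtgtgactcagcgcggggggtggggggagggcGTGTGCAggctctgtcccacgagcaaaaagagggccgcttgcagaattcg
Mt3, chr8:94152357-94152606: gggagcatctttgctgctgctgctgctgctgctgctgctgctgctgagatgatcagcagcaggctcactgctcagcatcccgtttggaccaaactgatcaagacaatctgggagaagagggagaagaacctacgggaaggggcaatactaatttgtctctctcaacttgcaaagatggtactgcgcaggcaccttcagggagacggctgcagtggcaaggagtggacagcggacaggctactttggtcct
Slc30a1, chr1:191906531-191906766: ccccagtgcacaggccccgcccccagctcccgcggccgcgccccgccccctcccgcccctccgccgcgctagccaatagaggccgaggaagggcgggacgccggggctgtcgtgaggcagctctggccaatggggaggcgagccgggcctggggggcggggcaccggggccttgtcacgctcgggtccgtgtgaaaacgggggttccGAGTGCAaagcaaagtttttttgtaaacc

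The Mt2 sequence held 3 matches, the Mt1 and Slc30a1 sequences 1 each and the Mt3 sequence 0. Of the members not shown, Slc30a10 held 3 matches in its 250 bases, Slc30a3 held 1 in 1 of its 2 windows, and Mtf1 and Slc39a10 held 0. Of all 32851 windows in the table, 21.4% held at least 1 match in the 250 bases upstream of the start and 1.26% held at least 3. The 3 metallothionein genes lie side by side on the plus strand of chromosome 8, at 94152607 to 94154146 (Mt3), 94172664 to 94173568 (Mt2) and 94179082 to 94180327 (Mt1). GENCODE gives Mt1 3 transcript starts, and the window shown lies before the first of them, so sequence just upstream of the later starts is outside it. The Mt2 window ends at 94172617, ahead of the GENCODE start at 94172664, so the bases between were not searched. A match is a run of letters and was not tested as a binding site.

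Metallothionein transcripts were abundant. Averaged over the 70 libraries, Mt3, which is expressed mainly in brain, reached 844 ± 170 FPKM (SD, n = 70) and ranked 32 of 24346 genes, Mt1 reached 326 ± 129 FPKM and ranked 173, and Mt2 reached 205 ± 76.2 FPKM and ranked 336. Mt3 was above Mt1 in 70 of 70 libraries, and Mt1 was above Mt2 in 69. The transporters and the sensor followed at lower levels, in the order Slc30a3 (47.5 ± 12.1 FPKM), Slc39a10 (36.5 ± 3.84), Slc39a14 (10.3 ± 0.962), Slc30a1 (9.89 ± 1.05), Mtf1 (5.44 ± 0.368) and Slc30a10 (3.75 ± 0.413). Of these neighbours, the means of Mt1 and Mt2, Slc30a3 and Slc39a10, and Slc39a14 and Slc30a1 did not differ beyond their SD over libraries. Compared within each library, Slc30a3 was above Slc39a10 in 56 of 70 and Slc39a14 above Slc30a1 in 49. All 9 genes passed the filter of a mean of 1 FPKM that 12994 genes passed.

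**Figure D1:**
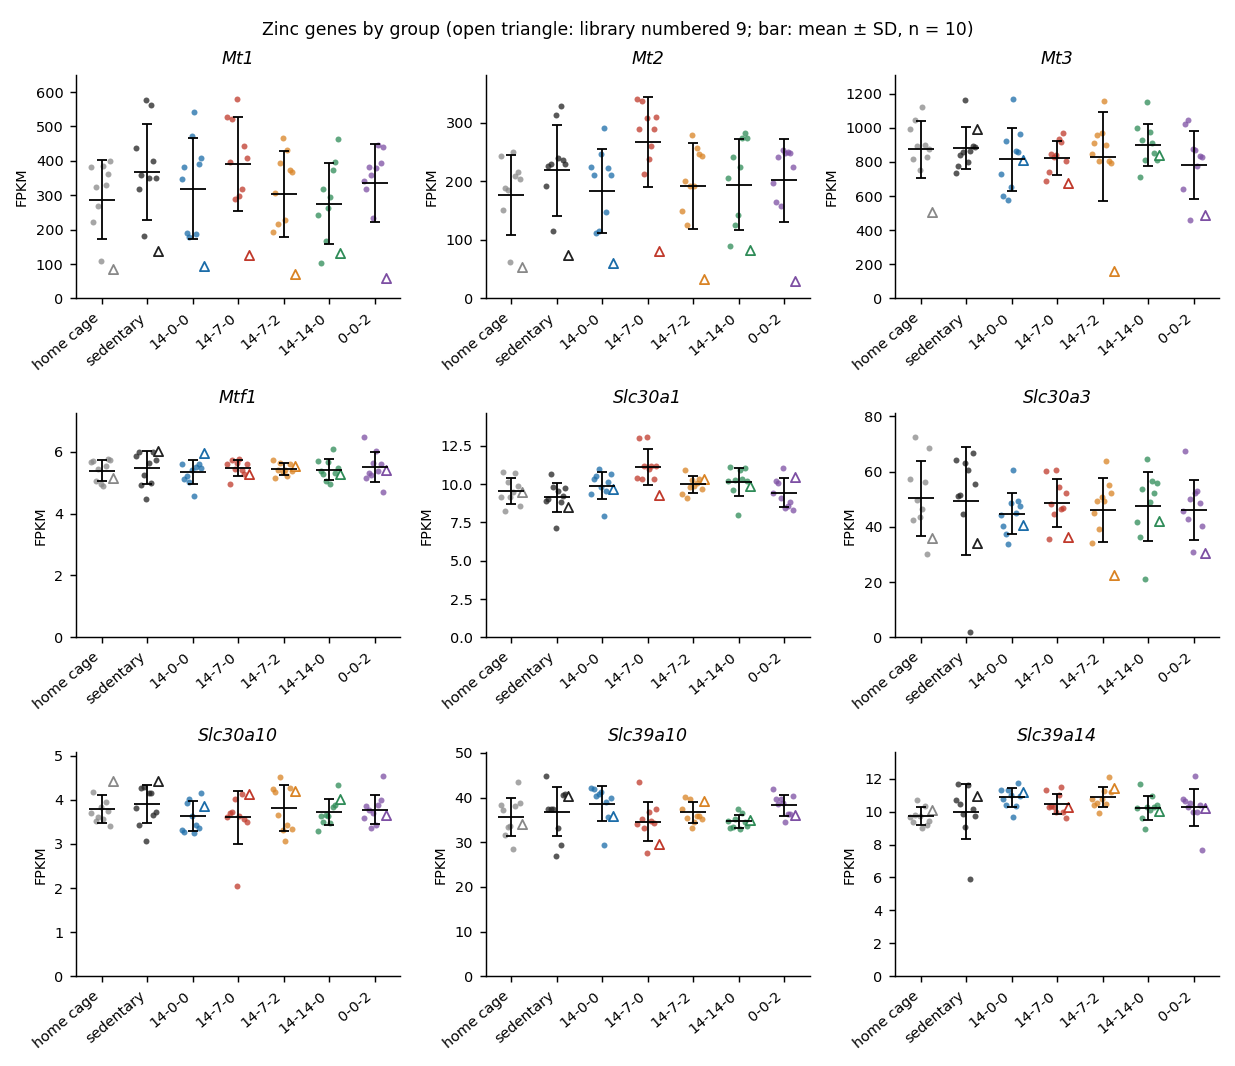
FPKM of the 9 zinc genes (y axis, from 0) in the 7 groups (x axis), 1 point per library, with the mean ± SD of 10 libraries as a bar and the library numbered 9 as an open triangle. Triangles lie at the bottom of every Mt2 group and of 6 of 7 Mt1 groups, the 14-7-0 points of Slc30a1 lie highest, and sedentary replicate 6 is the low point of Slc30a3 and Slc39a14.

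Mt1 encodes an inducible metallothionein found in astrocytes and many other cells. It was at 139 FPKM in the lowest, 355 in the median and 578 in the highest sedentary library. In 14-7-0 the lowest, median and highest libraries were at 126, 402 and 581 FPKM, in 14-14-0 at 103, 280 and 464, and in home cage at 86.6, 327 and 400. The remaining running groups lay between these, with medians of 364 (14-0-0), 337 (14-7-2) and 369 (0-0-2) FPKM. All groups overlapped. The log2 difference from sedentary ranged from -0.44 ± 0.29 (SE) in 14-14-0 to 0.10 ± 0.27 in 14-7-0, and none was called. For none of the 9 genes did neighbours in the order of the 7 group means differ by more than the larger of their SDs. Within cohort 1 the 14-14-0 difference was -0.78, and within cohort 2 it was -0.10. The 14-7-0 difference went to -0.05 without sedentary replicate 9 and to 0.27 without 14-7-0 replicate 9, and the 0-0-2 difference from -0.17 to 0.09 without 0-0-2 replicate 9.

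Mt2 encodes the second inducible metallothionein, whose gene lies just upstream of Mt1. Its highest group was 14-7-0, where the lowest, median and highest libraries were at 80.5, 290 and 342 FPKM, against 73.5, 230 and 328 in sedentary. Of the 14-7-0 libraries, 8 of 10 were above the sedentary median and 2 were above the highest sedentary library. The log2 difference was 0.31 ± 0.27 (SE), 0.52 within cohort 1 and 0.10 within cohort 2. In the other 5 groups Mt2 lay below sedentary, with log2 differences of -0.18 ± 0.34 (0-0-2) to -0.35 ± 0.31 (home cage), none of them called. Leaving out the library numbered 9 of the group itself turned the difference to 0.11 in 0-0-2 and to 0.01 in 14-7-2, from -0.18 and -0.25.

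Both genes were low in the libraries numbered 9 of all groups. The library numbered 9 was the lowest of its group in Mt2 in 7 of 7 groups and in Mt1 in 6 of 7. Mt1 in these libraries was at 86.6 (home cage), 139 (sedentary), 95.0 (14-0-0), 126 (14-7-0), 72.5 (14-7-2), 131 (14-14-0) and 60.7 FPKM (0-0-2). The other 63 libraries had a median of 363 FPKM, and 2 of them lay below the highest library numbered 9. Mt2 in the libraries numbered 9 was at 53.2, 73.5, 60.8, 80.5, 34.1, 82.4 and 29.4 FPKM in the same order, where the other 63 had a median of 226. Averaged over groups, a library numbered 9 differed from the other 9 of its group by -1.76 (Mt1) and -1.93 (Mt2) on the log2 scale. The difference was -0.60 for Mt3 and -0.44 for Slc30a3, whereas Mtf1, Slc30a1, Slc30a10, Slc39a10 and Slc39a14 differed by -0.03 to 0.15.

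**Figure D2:**
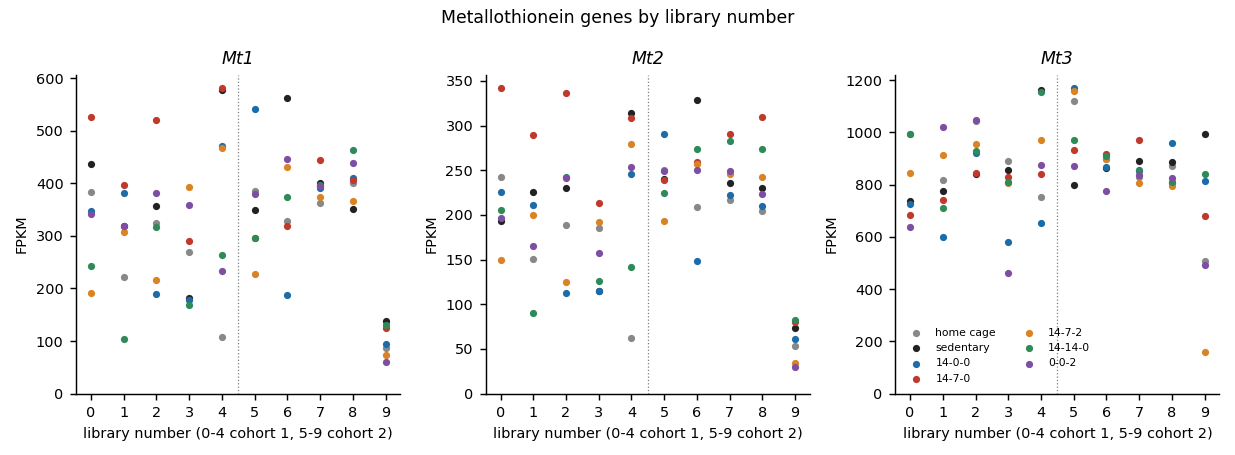
FPKM of Mt1, Mt2 and Mt3 (y axis, from 0) against the number of the library within its group (x axis, 0 to 4 in cohort 1 and 5 to 9 in cohort 2), coloured by group. At number 9 all 7 libraries lie at or under 139 FPKM in Mt1 and at or under 82.4 FPKM in Mt2, and the 14-7-2 library lies at 160 FPKM in Mt3.

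The labels give these 7 libraries no feature other than the number and cohort 2. Other values moved with them. Across all 12994 genes tested, 281 (2.16%) had a mean difference below -1 in libraries numbered 9 and 81 (0.623%) one above 1. By this measure 48 genes were lower than Mt1 and 37 lower than Mt2. The 281 genes had a median GC content of 60.2% and a median longest transcript of 1976 bases, against 49.7% and 3445 bases over all genes tested. Mt1 (1085 bases, 52.9% GC), Mt2 (511 bases, 55.6% GC) and Mt3 (536 bases, 62.3% GC) have the shortest transcripts of the 9 genes. The GC trend of a library is the slope of its log2 deviations on the GC content of genes per 10 GC points. It was -0.555 to -0.124 in the libraries numbered 9. In the other 63 it was -0.355 to 0.440 with a median of 0.0400, so the ranges overlapped. For example, 14-7-0 replicate 1 had a GC trend of -0.291 with Mt1 at 397 and Mt2 at 289 FPKM. The score of the choroid plexus markers was -1.37 to 4.36 in the libraries numbered 9, so it was high in some of them and low in others. The part of the GC trend or of the choroid plexus in the low Mt1 and Mt2 values was not tested.

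Without the libraries numbered 9, a choice made after their values were seen, Mt2 in 14-7-0 exceeded sedentary by 0.33 ± 0.16 on the log2 scale and was called, and Mt1 exceeded it by 0.12 ± 0.20. Mt1 in 14-14-0 then differed from sedentary by -0.48 ± 0.26. Mt3 in 14-7-2, at -0.21 ± 0.25 over all libraries, was then at 0.06 ± 0.09. With the GC trend of the library as a covariate, Mt1 differed from sedentary by -0.23 ± 0.18 in 14-14-0 and by 0.29 ± 0.20 in 14-7-0, and Mt2 by 0.47 ± 0.23 in 14-7-0. When the fit included the choroid plexus score, Mt1 was at -0.17 ± 0.33 in 14-14-0 and at 0.12 ± 0.37 in 14-0-0, against -0.44 and -0.26 without it, and Mt2 was at 0.34 ± 0.27 in 14-7-0 and 0.02 ± 0.35 in 14-0-0. In 14-14-0 and 14-0-0 the choroid plexus markers summed to medians of 2128 and 2308 FPKM against 88.3 in sedentary, and the cause of these shifts was not tested.

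**Figure D3:**
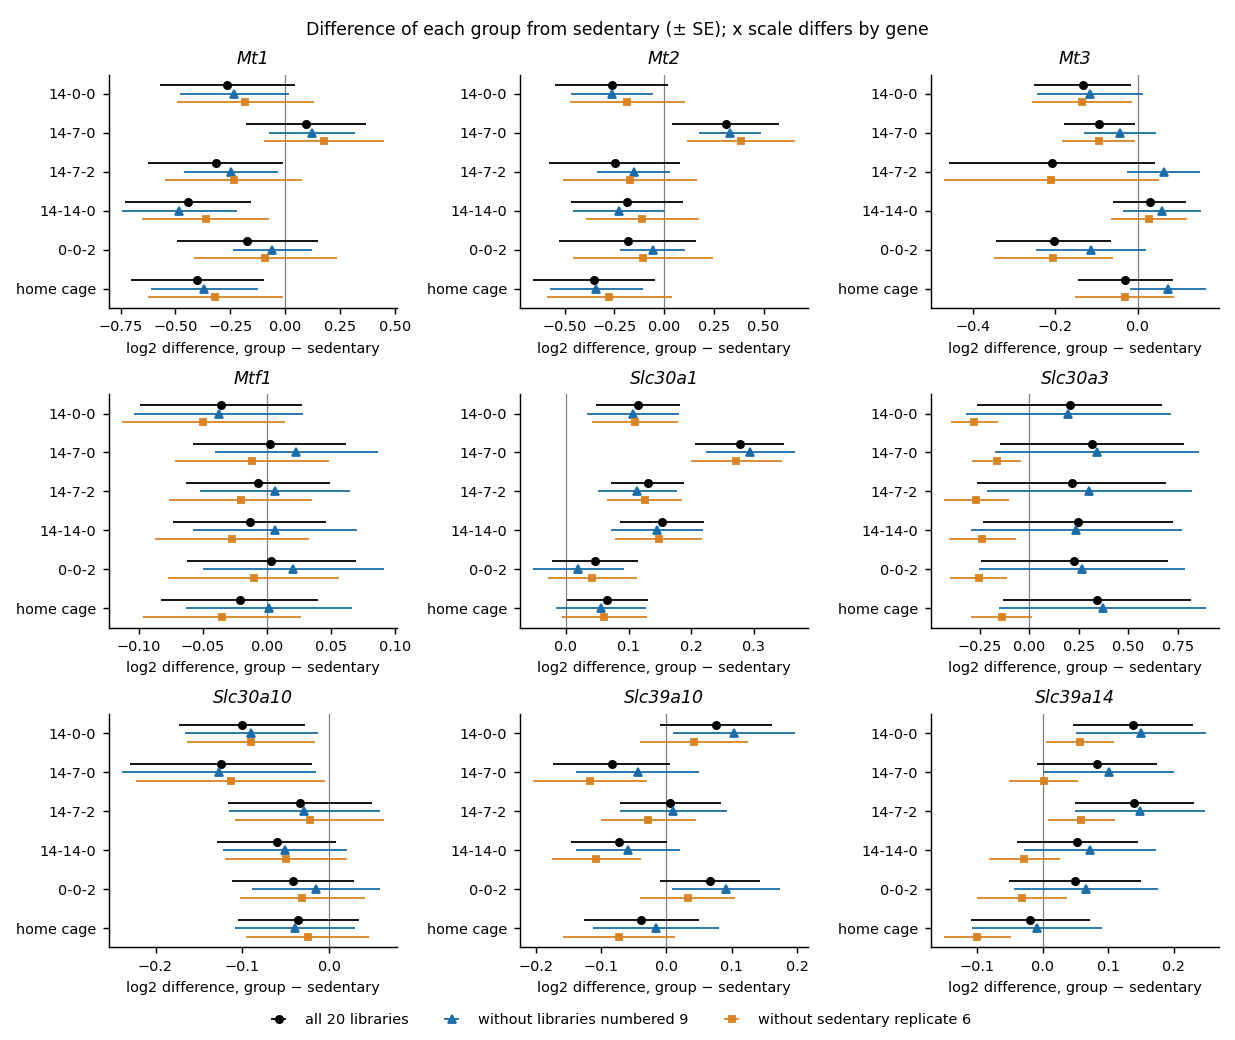
Difference of each group from sedentary in log2(FPKM + 0.1) (x axis, points with SE, the scale differs by gene) for the 9 genes, over all 20 libraries, without libraries numbered 9 and without sedentary replicate 6. Slc30a1 lies right of 0 in every group under the 3 fits, and Slc30a3 crosses from right to left of 0 without sedentary replicate 6.

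Mt1 and Mt2 varied together from library to library, with a Pearson r of 0.95 over the 70 libraries, 0.95 for deviations from the group means and 0.89 without libraries numbered 9. Their ratio was therefore much steadier than either level. The SD of log2 Mt1 was 0.746 and that of log2 Mt2 was 0.758, while that of log2(Mt1/Mt2) was 0.245. Mt1 was 1.68 times Mt2 in sedentary libraries by the mean log2 ratio, which was 0.75 ± 0.20 (SD, n = 10). The ratio was lower in both groups with a rest and no renewed running, 1.45 times in 14-7-0 (mean log2 ratio 0.53 ± 0.19) and 1.41 times in 14-14-0 (0.49 ± 0.22), where 9 and 8 of 10 libraries lay below the sedentary median. In home cage, 14-0-0, 14-7-2 and 0-0-2 the mean log2 ratio was 0.68 to 0.76, and 6, 4, 5 and 4 libraries lay below the sedentary median. Leaving out libraries numbered 9 gave means of 0.52 in 14-7-0, 0.47 in 14-14-0 and 0.73 in sedentary. The log2 ratio had an r of 0.09 with the GC trend of the library and of -0.16 with the choroid plexus score over 70 libraries. Without libraries numbered 9 these were 0.31 and -0.29, and their part in the group ratios was not tested. The libraries of every pair of groups overlapped, and the ratio was looked at after the values were seen.

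**Figure D4:**
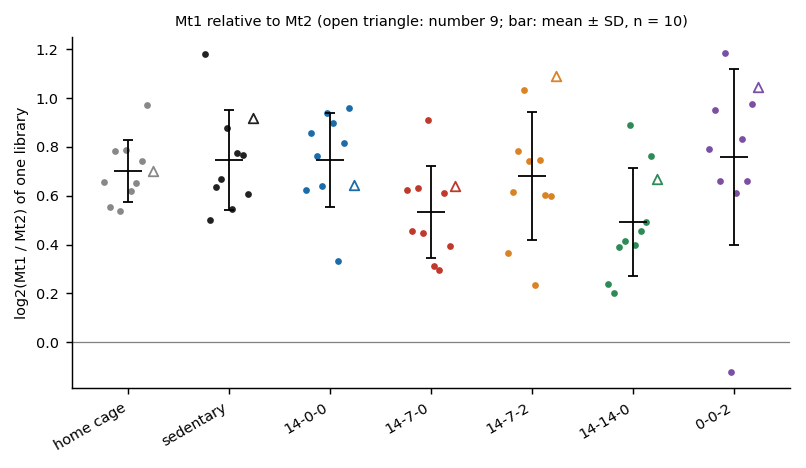
The log2 ratio of Mt1 to Mt2 FPKM within each library (y axis) by group (x axis), 1 point per library, with mean ± SD (n = 10) and the library numbered 9 as an open triangle. The means are 0.53 in 14-7-0 and 0.49 in 14-14-0 and lie between 0.68 and 0.76 in the other 5 groups, and all groups overlap.

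The genes most like Mt1 over the 70 libraries were Rpl36, a large ribosomal subunit protein gene (r = 0.95), Dpm3, a subunit gene of dolichol-phosphate mannose synthase (r = 0.95), and Mt2 (r = 0.95). For Mt2 they were Mt1, Rpl36 (r = 0.92) and Fbll1 (r = 0.91), a fibrillarin-like gene. Rpl36 was at 5.19 to 45.6 FPKM in libraries numbered 9, against a median of 281 FPKM in the other 63, and Dpm3 at 0.494 to 2.33 FPKM against 19.5. Without libraries numbered 9 and sedentary replicate 6, the r of Mt1 was 0.93 with Rpl36, 0.92 with Dpm3 and 0.88 with Mt2. Mt1 also followed the GC trend of the library (r = 0.75 over 70 libraries, 0.63 without libraries numbered 9), the scores of microglia (r = 0.80 and 0.65), inhibitory neurons (r = 0.62 and 0.57) and astrocytes (r = 0.56 and 0.32) and, inversely, the choroid plexus score (r = -0.49 and -0.41). The r of Mt1 with the CA1 pyramidal score was 0.41 over 70 libraries and 0.62 without sedentary replicate 6. With the excitatory neuron score it was -0.02 and 0.39. With the score of 10 glucocorticoid-responsive genes, a class to which Mt1 and Mt2 are known to belong, r was 0.23 for Mt1 and 0.26 for Mt2 over 70 libraries. All values of a library share its depth and base composition, so these correlations describe the libraries and carry no p.

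**Figure D5:**
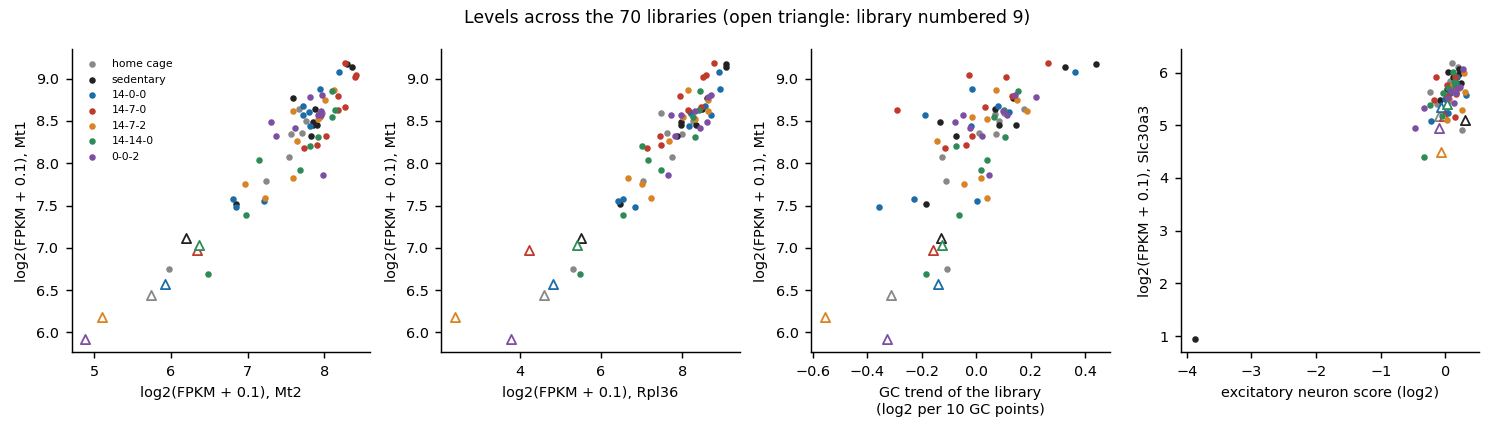
Each point is 1 of 70 libraries, coloured by group, with libraries numbered 9 as open triangles. Mt1 is plotted against Mt2, Rpl36 and the GC trend of the library, and Slc30a3 against the excitatory neuron score, all in log2(FPKM + 0.1) or log2 units. Mt1 follows Mt2 and Rpl36 closely (r = 0.95 with each), and sedentary replicate 6 lies alone at the lower left for Slc30a3.

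Mt3 encodes the metallothionein of neurons and astrocytes that was first described as a growth inhibitory factor. It was steadier than Mt1 and Mt2, with a coefficient of variation of 20.1% over the 70 libraries against 39.6% and 37.2%. Sedentary libraries lay at 736 to 1164 FPKM with a median of 862. Group medians were 832 (0-0-2) to 882 FPKM (home cage), and the log2 differences from sedentary ran from -0.21 ± 0.25 in 14-7-2 to 0.03 ± 0.09 in 14-14-0. Mt3 correlated with Mt1 at r = 0.45 over all libraries and at 0.09 without those numbered 9. The genes most like Mt3 were Tubg1, a gamma-tubulin gene (r = 0.86), Mbd3, a gene of the NuRD repressor complex (r = 0.86), and Rps9, a small ribosomal subunit protein gene (r = 0.85).

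Mtf1, the zinc-sensing transcription factor, was the least variable of the 9 genes. Its coefficient of variation over the 70 libraries was 6.76%, and 1.80% of the genes tested had a smaller SD on the log2 scale. Sedentary libraries lay at 4.46 to 6.03 FPKM, and group means lay between 5.34 (14-0-0) and 5.50 FPKM (0-0-2). The log2 differences from sedentary were -0.04 to 0.00 with SE of 0.06 to 0.07. The r of Mtf1 was -0.05 with Mt1, -0.01 with Mt2 and 0.09 with Slc30a1, the genes its protein is known to regulate. The genes most like Mtf1 were Cds2, Arhgap35 and Camsap1 (r = 0.73 each).

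Slc30a1 (ZnT1) exports zinc across the plasma membrane, and it was the one member called at an unadjusted p under 0.05. It was higher than in sedentary in 14-7-0, 14-7-2 and 14-14-0. In these comparisons 3.26%, 4.39% and 4.95% of all genes tested were called, which is printed beside the count because the genes were chosen with it known. Sedentary libraries lay at 7.14 to 10.7 FPKM with a median of 9.14. In 14-7-0 the lowest, median and highest libraries were at 9.26, 11.1 and 13.1 FPKM, so that 10 of 10 were above the sedentary median and 6 were above the highest sedentary library. The groups still overlapped. The log2 difference was 0.28 ± 0.07 (SE), a fold of 1.21, with 0.35 within cohort 1 and 0.20 within cohort 2.

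The other groups that ran for 14 days lay between. Slc30a1 medians were 9.98 FPKM in 14-0-0, 9.98 in 14-7-2 and 10.2 in 14-14-0, and 9 of 10 libraries were above the sedentary median in each. The log2 differences were 0.12 ± 0.07, 0.13 ± 0.06 and 0.15 ± 0.07. In 0-0-2 and home cage, where no mouse had run for 14 days, the medians were 9.26 and 9.49 FPKM and the differences 0.05 ± 0.07 and 0.07 ± 0.07. All 6 comparisons share the same 10 sedentary libraries, and sedentary replicate 4 was the lowest of them. Without it the difference was 0.24 in 14-7-0, 0.08 to 0.11 in the other groups that ran for 14 days, 0.01 in 0-0-2 and 0.03 in home cage, and the calls in 14-7-2 and 14-14-0 were lost.

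In 14-7-0, Slc30a1 was called in each fit run and with any single library left out, with a log2 difference of 0.20 to 0.35 over the fits. These fits reuse the same libraries and are no independent evidence. Of all 12994 genes tested by limma in 14-7-0, 0 passed the adjusted threshold, and the smallest adjusted p was 0.968. In 14-7-2 the call was lost when any of 8 libraries was left out and in 14-14-0 when any of 5 was. Leaving out the libraries numbered 9 ended the calls in 14-7-2 (0.11 ± 0.06) and 14-14-0 (0.15 ± 0.07), as did the choroid plexus score or the GC trend as a covariate. With the GC trend the r of Slc30a1 was -0.41, and with Mt1 and Mt2 it was -0.08 and 0.05. The genes most like Slc30a1 were Fundc2, a mitochondrial outer membrane gene (r = 0.72), Tbc1d12 (r = 0.70) and Suz12, a core gene of the Polycomb repressive complex (r = 0.69).

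Slc30a3 (ZnT3) loads zinc into synaptic vesicles of glutamatergic neurons, mossy fibres above all. It was at 34.1 to 66.7 FPKM in 9 sedentary libraries and at 1.83 FPKM in sedentary replicate 6. That library was low in the dentate granule cell markers too, with Prox1 at 2.91 FPKM against 11.2 to 30.9 and C1ql2 at 1.08 against 12.8 to 59.4. It was not low in the metallothioneins, with Mt1 at 563 and Mt2 at 328 FPKM. Slc39a14 was also at its lowest there, at 5.90 FPKM against 9.08 to 11.7 in the other 9 sedentary libraries.

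Over all 20 libraries of a comparison, Slc30a3 lay above sedentary in each of the 6 groups, by 0.20 ± 0.46 (14-0-0) to 0.34 ± 0.47 (home cage) on the log2 scale. Without sedentary replicate 6 it lay below sedentary in each, from -0.14 ± 0.15 (home cage) to -0.28 ± 0.12 (14-0-0), and 14-0-0 was then called. The medians, which depend little on 1 library, were 53.5 FPKM in sedentary, 44.6 in 14-0-0 and 47.3 to 50.7 in the other 5 groups. In 14-0-0 and in 0-0-2, 1 of 10 libraries lay above the sedentary median. The count was 2 in 14-7-2, 3 in 14-7-0 and 4 in 14-14-0 and in home cage. Slc30a3 was lower in libraries numbered 9 in 7 of 7 groups, at 22.5 to 42.1 FPKM.

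Over the 69 libraries without sedentary replicate 6, Slc30a3 had an r of 0.58 with the score of 6 granule cell markers, 0.64 with that of 4 CA1 pyramidal markers, 0.50 with that of 5 excitatory neuron markers, 0.60 with that of 8 microglia markers and 0.61 with the GC trend. Over all 70 libraries the genes most like it included Chrm1, a muscarinic receptor gene (r = 0.92), and Mical2 (r = 0.92). Without sedentary replicate 6 they were Plk5 (r = 0.86), Synpo (r = 0.86), the gene of synaptopodin, and Lzts3 (r = 0.85). Slc30a3 and Slc39a14 correlated at 0.58 with that library and at 0.07 without it.

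Slc30a10 (ZnT10) exports manganese, and was the lowest of the 9 genes. Sedentary libraries lay at 3.06 to 4.44 FPKM with a median of 3.98. The mean of each other group was lower, by a log2 difference of -0.03 ± 0.08 (14-7-2) to -0.12 ± 0.11 (14-7-0), and none was called. The 14-7-0 value includes replicate 4, at 2.04 FPKM, the library with the most genes at 0. The next lowest of that group was at 3.49, and without replicate 4 the 14-7-0 difference was -0.04. With the GC trend as a covariate, the 14-0-0 difference was -0.14 ± 0.06 and was called.

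Slc39a10 (ZIP10) imports zinc across the plasma membrane. It was at 26.9 to 44.8 FPKM in sedentary libraries, with a median of 37.5. The log2 differences ran from -0.08 ± 0.09 in 14-7-0 to 0.08 ± 0.09 in 14-0-0, and none was called. In 14-14-0 the 10 libraries lay within 33.0 to 37.4 FPKM and 0 of 10 were above the sedentary median. That count was 1 in 14-7-0, 3 in 14-7-2, 4 in home cage, 6 in 0-0-2 and 7 in 14-0-0. The genes most like Slc39a10 were G3bp2, a stress granule protein gene, Lpgat1 (r = 0.82 each) and Srpk2, a kinase gene of splicing factors (r = 0.81).

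Slc39a14 (ZIP14) imports zinc, iron and manganese. Sedentary libraries other than replicate 6 lay at 9.08 to 11.7 FPKM. In 14-0-0 and 14-7-2 the means were 10.9 ± 0.601 and 10.9 ± 0.630 FPKM (SD, n = 10), and 9 of 10 libraries in each were above the sedentary median of 10.3. The log2 differences were 0.14 ± 0.09 in both over all libraries and 0.06 ± 0.05 in both without sedentary replicate 6. Home cage had the lowest mean, 9.74 ± 0.526 FPKM, with a log2 difference from sedentary of -0.02 ± 0.09, or of -0.10 ± 0.05 without sedentary replicate 6. The genes most like Slc39a14 were Sphkap, Stxbp5 and Prickle2 (r = 0.86, 0.86 and 0.85).

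Counted over the 9 genes, 1 was called in 14-7-0, 1 in 14-7-2 and 1 in 14-14-0, each time Slc30a1. In 14-0-0, 0-0-2 and home cage 0 were called, where 9.15%, 2.37% and 2.3% of all genes tested were. The median log2 difference of the 9 genes was 0.08 in 14-7-0, the highest of the 6 comparisons, and -0.04 in 14-0-0, the lowest, where that of all genes tested was -0.01 and 0.01.

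The rest of the zinc genes were examined by limma in the same fits. This list and that of copper and iron genes were drawn up with earlier results of these data known. Their p-values are therefore a description and no independent evidence. Of 24 listed genes (other Slc30 and Slc39 members, Mt4, Mcoln1, Trpm7, Tmem163 and Gpr39) 19 passed the filter. Slc30a9, a zinc transporter and nuclear coactivator, was highest at 50.6 FPKM on average, and Slc30a8, which loads insulin granules in pancreatic beta cells, was lowest at 0.00975 FPKM. In 14-0-0, 5 of the 19 rose and 0 fell, where 9.15% of all genes tested were called. Slc39a12, a zinc importer of astrocytes, rose by 0.32 ± 0.09 (limma p = 0.0016, Benjamini-Hochberg adjusted p = 0.279). Slc30a5, a zinc transporter of the early secretory pathway, rose by 0.20 ± 0.06 (p = 0.0016, adjusted p = 0.279), its partner Slc30a6 by 0.15 ± 0.06 (p = 0.0346, adjusted p = 0.495), Slc30a4 by 0.22 ± 0.10 (p = 0.0438, adjusted p = 0.531) and the importer Slc39a6 by 0.28 ± 0.11 (p = 0.0195, adjusted p = 0.414). The median log2 difference of the 19 genes in 14-0-0 was 0.08, against 0.01 over all genes tested.

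Elsewhere the list had few calls. Slc39a6 also rose in 14-7-2 by 0.31 ± 0.12 (limma p = 0.0179, adjusted p = 0.847) and in 0-0-2 by 0.28 ± 0.12 (p = 0.0314, adjusted p = 1). Slc30a5 rose in 14-14-0 by 0.19 ± 0.07 (p = 0.0159, adjusted p = 0.974), and the importer Slc39a13 fell in 14-7-0 by 0.23 ± 0.11 (p = 0.0453, adjusted p = 0.968). In home cage 0 of the 19 were called. Over the 6 comparisons 9 of 114 tests (7.89%) passed an unadjusted p under 0.05, 8 of them upward. By comparison 2.3% to 9.15% of all genes tested were called. Of the 114 tests 0 passed the adjusted threshold by limma or by Cyber-T, which called 8 unadjusted. The choroid plexus score of a library had an r of 0.81 with Slc39a12 and 0.72 with Slc30a5. The markers of that tissue summed to a median of 2308 FPKM in 14-0-0 and 2128 in 14-14-0, against 88.3 in sedentary and 87.5 in 14-7-0. With that score as a covariate Slc30a4 and Slc39a6 remained called in 14-0-0 and Slc30a5, Slc30a6 and Slc39a12 did not. Without libraries numbered 9 the calls of Slc30a4 in 14-0-0, Slc39a6 in 14-7-2 and 0-0-2 and Slc39a13 in 14-7-0 were lost. Calls of Slc30a9 in 14-7-2 and Slc39a12 in 14-14-0 were gained, which gave 7 of 114. With the GC trend as a covariate those of Slc30a4 and Slc30a6 in 14-0-0 and Slc39a13 in 14-7-0 were lost. Slc39a1 was then newly called in 14-0-0, 14-7-0, 14-14-0, 0-0-2 and home cage, which gave 11 of 114. In both fits Slc30a5, Slc39a12 and Slc39a6 kept their calls in 14-0-0, and 0 tests passed the adjusted threshold.

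Of 15 genes of copper and iron handling 14 passed the filter. Fth1, the ferritin heavy chain gene, was highest at 2430 FPKM on average, and Atp7b, a copper-exporting ATPase gene, was lowest at 0.396 FPKM. In 14-0-0, where 9.15% of all genes tested were called, 5 of 14 rose and 0 fell by limma: Slc31a1, the main copper importer, by 1.00 ± 0.27 (p = 0.00125, adjusted p = 0.279), the copper-exporting ATPase gene Atp7a by 0.47 ± 0.21 (p = 0.0335, adjusted p = 0.493), ceruloplasmin (Cp) by 0.33 ± 0.14 (p = 0.0346, adjusted p = 0.495), heme oxygenase 1 (Hmox1) by 0.26 ± 0.11 (p = 0.0301, adjusted p = 0.477) and the transferrin receptor gene Tfrc by 0.36 ± 0.14 (p = 0.0167, adjusted p = 0.4). In 14-14-0, where 4.95% of all genes tested were called, Slc31a1 rose by 0.98 ± 0.34 (p = 0.0089), Atp7a by 0.53 ± 0.23 (p = 0.034) and Cp by 0.41 ± 0.17 (p = 0.0236), all at an adjusted p of 0.974.

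The 3 copper genes moved with choroid plexus markers, with an r to that score of 0.95 (Slc31a1), 0.85 (Atp7a) and 0.74 (Cp) over 70 libraries. Slc31a1 was at 4.96 to 7.08 FPKM in sedentary libraries and at 6.65 to 38.0 in 14-0-0 and 5.79 to 48.8 in 14-14-0, where the choroid plexus sums reached 16169 and 21934 FPKM against at most 373 in sedentary. With the score as a covariate none of the 3 remained called in either group. Hmox1 had an r of 0.03 with that score, and its call in 14-0-0 was lost with the covariate too. Tfrc had an r of 0.04 with that score. It rose also in 14-7-0 by 0.34 ± 0.13 (limma p = 0.0209, adjusted p = 0.968) and in 14-7-2 by 0.43 ± 0.13 (p = 0.00339, adjusted p = 0.847), and its 3 calls remained with the covariate. Transferrin (Trf) fell in 14-7-2 by 0.36 ± 0.17 (p = 0.049, adjusted p = 0.847), and ferroportin (Slc40a1), the cellular iron exporter, rose in home cage by 0.31 ± 0.09 (p = 0.00244, adjusted p = 1). In all, 12 of 84 tests (14.3%, where 2.3% to 9.15% of all genes tested were called by comparison) passed an unadjusted p under 0.05 and 0 the adjusted threshold, by limma and by Cyber-T alike.

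The harvest cohorts, which the choice of genes did not use, were compared over all 70 libraries with the group as a term. By limma 0 of the 9 genes differed at an unadjusted p under 0.05, where 11.9% of all genes tested did. Mt1 was at 325 ± 125 FPKM in cohort 1 and 327 ± 135 in cohort 2, a log2 difference of -0.07 ± 0.18 (limma p = 0.713, adjusted p = 0.94). Mt2 was at 202 ± 70.1 and 208 ± 82.8 FPKM, a difference of -0.07 ± 0.18 (p = 0.695, adjusted p = 0.935). For the other 7 genes the difference was -0.10 to 0.05. The libraries numbered 9 all belong to cohort 2. Without them Mt2 was higher in cohort 2 by 0.35 ± 0.10 (limma p = 0.000999, adjusted p = 0.0203) and Mt1 by 0.32 ± 0.12 (p = 0.0107, adjusted p = 0.0711). With the GC trend of the library as a covariate and all 70 libraries, both were lower in cohort 2, with a log2 difference of -0.25 ± 0.11 for Mt1 (limma p = 0.0302) and of -0.25 ± 0.12 for Mt2 (p = 0.0445). The cohort difference of Mt1 and Mt2 thus turned in direction without libraries numbered 9 and grew in its first direction with the GC trend. Both choices were made after the values were seen. The libraries numbered 9 were singled out after their low Mt1 and Mt2 values were seen. Leaving them out of cohort 2 therefore had to raise that cohort in both genes. The p-values given without them are no test of a cohort difference.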

How the data were processed

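The authors sequenced poly-A RNA of dorsal hippocampus, aligned reads to the mouse genome (mm10; Bowtie and Cuffnorm per the submitters' processing notes) and deposited 1 table of FPKM values for 24346 genes in 70 libraries. No counts were used here. Groups, replicate numbers and harvest cohorts came from the labels. The members and lists were chosen with earlier results of these data known.

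Log2(FPKM + 0.1) values of each group were set against those of sedentary with limma 3.58.1 in R 4.3.3 (moderated test with trend, two-sided, no covariates) over 12994 genes, those that averaged 1 FPKM or more. A gene was called at an unadjusted p under 0.05, the authors' threshold, and p-values were adjusted by Benjamini-Hochberg over all genes tested. A standard error covers the spread between libraries, which the labels do not tie to named animals. The fit was tested on simulated data. A list score averages, over the listed genes, the log2 value less that gene's mean. The genes named are the 9, each called gene and the highest and lowest gene of 2 lists, the 3 genes most correlated with each of the 9, and markers. 1 gene that this rule names is not reported here. The same-numbered libraries were checked for pairing. Promoters came from RefSeq (GRCm38.p6), with 8 of the 9 genes present. In 8 of 10 windows the bases past the start matched a GENCODE transcript of the gene. The other 2 starts lie upstream of GENCODE's.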

Additional observations from a re-analysis of the deposited data

Results flagged for a closer look

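By Dixon's criterion at the 95% level, 9 of 63 combinations of gene and group held a library apart from the other 9, where chance gives about 1 in 20. Libraries numbered 9 account for 3 of them, Mt2 in 14-7-0 (80.5 FPKM) and in 0-0-2 (29.4 FPKM) and Mt3 in 14-7-2 (160 FPKM). Sedentary replicate 6 accounts for 2, Slc30a3 (1.83 FPKM) and Slc39a14 (5.90 FPKM). Slc30a10 stood apart in 14-7-0 replicate 4 (2.04 FPKM), the library with the most genes at 0, and Slc30a1 in 14-14-0 replicate 4 (7.97 FPKM). Slc39a10 stood apart in 14-0-0 replicate 5 (29.4 FPKM) and Slc39a14 in 0-0-2 replicate 8 (7.64 FPKM). Each of the 9 was the lowest of its group.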

How the results depend on the processing

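Slc30a1 in 14-7-0 kept its call in all fits, and the log2 differences of the 9 genes moved in all 813 alternative values by less than 1 SD, the pooled SD of the 2 groups compared, which for Slc30a3 includes sedentary replicate 6. Of these values 62 had the opposite sign. They include Slc30a3 in all 6 comparisons, both without sedentary replicate 6 and in cohort 1 alone, and in 14-14-0 it ran from -0.42 to 0.91. The count of the 9 genes called was 1 in 14-0-0 in the joint fit (Slc39a14), in cohort 1 alone (Slc30a3) and with the GC trend (Slc30a10), and 0 to 1 with libraries left out. In 14-7-0 it was 2 with the replicate block (Slc30a1, and Mt2 at 0.31 ± 0.11) and 1 to 2 with libraries left out. In 14-7-2 it was 2 in the joint fit, 1 within cohort 1 (Slc30a3, not Slc30a1), 0 with the block, choroid plexus score, GC trend, Cyber-T or cohort 2 alone, and 0 to 1 with libraries left out. In 14-14-0 it was 2 with the block (Slc30a1, and Mt1 at -0.44 ± 0.17), 0 with the choroid plexus score, GC trend or Cyber-T, 1 within cohort 1 (Mt1, not Slc30a1), and 0 to 1 with libraries left out. Between cohorts it was 2 with the GC trend and 0 to 2 with libraries left out. Calls of other zinc genes were 5 with the choroid plexus score and 3 in cohort 2 alone. Calls of copper and iron genes were 6 at a minimum mean of 5 FPKM, 5 with the choroid plexus score, 4 in cohort 1 and 7 in cohort 2 alone. The share of all genes tested that each of these other fits called is not given here. A changed count may therefore reflect a changed rate of calls over all genes, which was not tested.

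The cohort difference ranged with libraries left out from -0.0903 to 0.323 (Mt1), -0.0944 to 0.355 (Mt2), -0.0179 to 0.114 (Mt3), -0.0858 to 0.0425 (Slc30a3) and -0.0273 to 0.00765 (Slc39a14). It was 0.00029 for Mt3 after quantile normalization and 0.0010 for Slc39a14 with the GC trend. With the choroid plexus score Atp7a differed by -0.026 in 14-0-0 and -0.016 in 14-14-0. The cause of these changes was not tested. The numbers were not taken to pair the samples, although number 9 correlated with sedentary replicate 9 at 0.27 to 0.38 in all 6 comparisons. Between same-numbered libraries of a group and sedentary the correlation of deviations went down to -0.40, and 0 to 3 of 10 libraries correlated best with their own number. The replicate block gave 13 calls for other zinc and 13 for copper and iron genes. Leaving out libraries numbered 9 and the GC trend were added after seeing the data. The table gives no read counts, so what depth limits was not examined.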

Other observations

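The 7 libraries numbered 9 resembled each other beyond the metallothioneins. Over the 21 pairs of them, the correlation of log2 deviations from the group means across the genes tested was 0.38 on average and 0.11 to 0.71 in range. Of the 12994 genes tested, 136 (1.05%) were lowest in the library numbered 9 in each of the 7 groups. Across 12521 genes with a GC content, the mean difference of these libraries had a Pearson r of -0.44 with GC content, a correlation across genes, which are not independent. In these libraries Ttr, the main choroid plexus transcript, ranged from 32.2 FPKM (14-14-0) to 10651 FPKM (0-0-2), while Rpl36 was at most 45.6 FPKM in all 7.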
